A study of Mus musculus with 2 samples.

Results

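The control section of this series, a cross-section of the heart of 1 mouse read on a Visium CytAssist array, held 1256 of the 2180 spots over tissue in the series, and all of them were used. Genes with at least 200 UMIs (unique molecular identifiers, each counting 1 captured probe molecule) over those spots were ranked by Moran's I, a measure of how alike neighboring spots are that is near 0 for a gene scattered at random and rises toward 1 for a gene that changes smoothly over the tissue. Of 7221 ranked genes the 50 with the highest Moran's I are described here, by where on the section they lie and which tissue compartments they mark. The ranking values are those the authors deposited for this section. The mouse had the genotype α-MHC-MerCreMer+/−, meaning that a tamoxifen-dependent Cre recombinase was driven by the α-MHC promoter of heart muscle cells, and it carried no TOP2B transgene. It received tamoxifen as a single intraperitoneal dose of 80 mg/kg, so Cre and tamoxifen are part of everything measured here. Mice of this single-dose model were 6 weeks old when injected, with siblings of the same age as controls, and the labels gave no sex. The section, 5 μm thick and cut from a formalin-fixed, paraffin-embedded block, was 1 section of 1 animal. There are no replicates, so no p-value is given, and every interval below covers counting error alone.

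The ventricular wall is layered. Its outer face is covered by the epicardium, a mesothelial sheet, and its inner face by the endocardium, an endothelial sheet with a gene program of its own. Between them, muscle cells differ in ion channels and contractile proteins with their depth in the wall, coronary arteries wrapped in smooth muscle run through it, and Iroquois transcription factors and the potassium channel Kcnd2 are known for opposite gradients across it. A Visium spot is wider than a cell, so each value below is that of a small region that may hold several cell types.

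The spots formed a closed ring around a central cavity. The largest connected piece held 1245 spots, at array rows 14 to 58 and array columns 28 to 105, and its largest uncovered hole, at rows 31 to 50 and columns 60 to 79, spanned 78 array positions. The section held 14376300 UMIs, with a median of 11335.5 per spot. Heart muscle genes were abundant: the 12 working cardiomyocyte markers in the table made up 11.4% of all UMIs. The muscle was mostly ventricular by its markers, the 8 ventricular ones summing to 446554 UMIs and the 12 atrial ones to 7980. Myl2, the ventricular myosin light chain, had 303048 UMIs, against 125 of its atrial counterpart Myl7 and 16 of Sln, an atrial calcium pump inhibitor. Not all markers were so far apart: atrial Nppa, Kcnj5 and Kcnj3 had 3935, 1198 and 1137, and ventricular Irx4 and Hey2 had 807 and 13. Markers of lymphocytes, thymus, neutrophils, nerve, skeletal muscle, airway and liver had no gene at 200 UMIs.

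Another 11 spots stood apart from the ring. Of these, 8 lay inside the cavity, at rows 35 to 39 and columns 66 to 70, with 729 to 1681 UMIs each, and 3 lay alone outside the ring with 1, 3 and 60 UMIs. Erythroid genes made up 51.6% of the UMIs of the 8 cavity spots and 0.184% of those of all other spots, whereas working cardiomyocyte markers made up 4.28% and 11.5%. The edge counts and the values of the erythroid genes and of the group of Tnnc1 moved most without these 11 spots and are given with and without them.

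Positions were described in 3 ways. Edge spots, 230 in all, were those with fewer than 6 tissue neighbors, and the other 1026 were interior spots. Quadrants split the section at its mean row and column, and low rows are called upper and low columns left, as in the maps, without an anatomical side. The ring was also cut into 5 layers of equal width, from layer 1 at the outer border (317 spots) to layer 5 at the cavity (142 spots), by each spot's distance to the outside relative to its distance to the cavity. Layer 5 held 61 edge spots and layer 1 held 139. Levels are CPM, UMIs per 1000000 UMIs of the spots compared.

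Of the 50 genes, 28 were at least 2-fold apart by edge, quadrant or layer, as were 73 of all 7221 ranked genes. A high Moran's I requires an uneven layout, so such counts describe the 50 genes and are no test of them. Between layers 1 and 5, 16 of the 50 differed at least 2-fold, against 0.692% of all ranked genes. Of these 9 were higher in the outer layer (0.415% of all ranked genes) and 7 in the inner layer (0.277%). Between edge and interior, 12 of the 50 differed (0.263%), 10 of them higher (0.222%) and 2 lower (0.0415%) at the edge. Without the 11 detached spots, 10 differed, 8 of them higher and 2 lower, as Hbb-bt fell from 2.89-fold to 1.85-fold and Alas2 from 2.84-fold to 1.69-fold. Between the highest and the lowest quadrant, 14 of the 50 differed (0.346%). Most called genes outside the 50 were scarce: among genes with at least 1000 UMIs, 9 differed between layers, and all 9 were of the 50. At the end of the ranking, Bdh1 (0.136), Pi16 (0.134) and Ndufv3 (0.134) were just inside the 50 by Moran's I, and Uqcrfs1 (0.133), Uqcr11 (0.133) and Myoz2 (0.132) were just outside.

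The steepest layout was across the wall. Lrtm1, a membrane protein with leucine-rich repeats, had the highest Moran's I of the section at 0.689. It filled most of the outer wall, while the wall around the cavity was nearly empty of it. Its level was 386 CPM in layer 1, 371 in layer 2, 233 in layer 3, 40.8 in layer 4 and 6.13 in layer 5, a ratio of 63.02 between the outermost and the innermost layer (95% interval 33.1 to 138). The ratio depended on how the layers were drawn, at 28.1 with layers of equal numbers of spots and 22.0 with 3 layers. The wall nearer to the outside was at least 2-fold higher than the wall nearer to the cavity in all 4 quadrants, by 2.04-fold at the lower left to 19.6-fold at the lower right. Stk39, a kinase that controls ion cotransporters, had the layout most like that of Lrtm1, with a correlation of 0.409 over the 1256 spots (0.408 for Acta1), and fell from 264 to 93.3 CPM, a ratio of 2.83 (2.36 to 3.41). Spots share a library and a range of depth, so correlations over spots are descriptions.

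**Figure D1:**
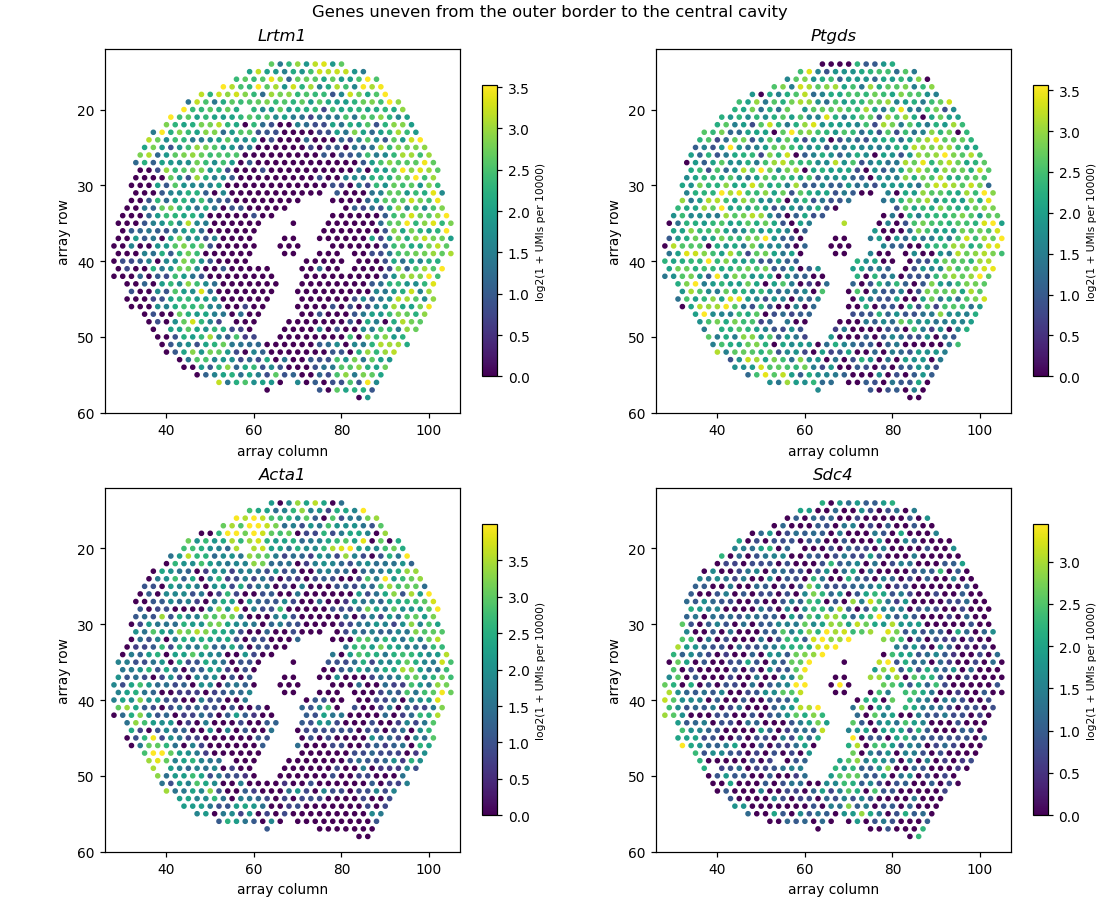
Maps of 4 genes over the control section, by array column and array row, with color for log2(1 + UMIs per 10000 UMIs of the spot). The 3 detached outer spots are not drawn. Lrtm1, Ptgds and Acta1 are higher in the outer than in the inner wall but uneven along it, and Sdc4 lines the cavity and the left border, where Lrtm1 is low.

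Acta1, Ptgds and Ankrd1 were grouped together, with correlations of 0.307 to 0.493 among them. They were not clearly apart from Lrtm1, which correlated with Acta1 at 0.408 and with Ptgds at 0.402. Acta1, the skeletal muscle actin, which heart muscle also makes, ranked second with a Moran's I of 0.519 and fell from 402 CPM in layer 1 through 295, 191 and 123 to 70.2 in layer 5, a ratio of 5.73 (4.69 to 7.07). Ptgds, a prostaglandin D synthase, peaked in layer 2 at 432 CPM and was 136 in layer 5. Ankrd1, a titin-associated protein of heart muscle that rises under stretch, fell from 1067 to 519 CPM, a ratio of 2.05 (1.90 to 2.22). All 3 were higher in the outer than in the inner wall in each of the 4 quadrants. They were not evenly spread along the outer wall: Acta1 was 326 CPM in the upper left and 145 in the lower right quadrant. Within layer 1, cut into 8 sectors by direction from the center, Acta1 ranged from 65.9 CPM at the bottom to 677 at the top.

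Hspb8, Bdh1 and Cd74 had milder slopes in the same direction, none of them 2-fold. Hspb8, a small heat shock protein that helps clear misfolded proteins, fell from 620 to 332 CPM, a ratio of 1.87 (1.69 to 2.06). Bdh1, which oxidizes ketone bodies, fell from 93.6 to 56.5 CPM, a ratio of 1.66 (1.30 to 2.14). Cd74, the invariant chain of MHC class II, fell from 298 CPM in layer 1 to 164 in layer 4 and was 179 in layer 5.

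Genes of the inner wall were led by Sdc4, syndecan-4, a heparan sulfate proteoglycan of cell adhesions. It was 103 CPM in layer 1, 67.2 in layer 2, 94.8 in layer 3, 179 in layer 4 and 440 in layer 5, so that the innermost layer was 4.27 times the outermost, and 46 of its 63 richest spots lay in layer 5. Over the section it was the gene of the 50 least like Lrtm1, with a correlation of -0.483. Myl1, an alkali myosin light chain best known from fast skeletal muscle, rose from 57.8 to 158 CPM, and Phlda1, a pleckstrin homology-like protein, from 48.0 to 131 CPM. The innermost layer held 2.73 and 2.74 times the outermost for these genes, and both were higher in the inner wall in all 4 quadrants. Pi16, a peptidase inhibitor of fibroblasts, rose from 36.7 CPM in layer 1 to 85.8 in both layers 4 and 5. Sdc4 was 1.95-fold higher at the edge and Myl1 1.27-fold, whereas Pi16 was lower there, at 0.735-fold.

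**Figure D2:**
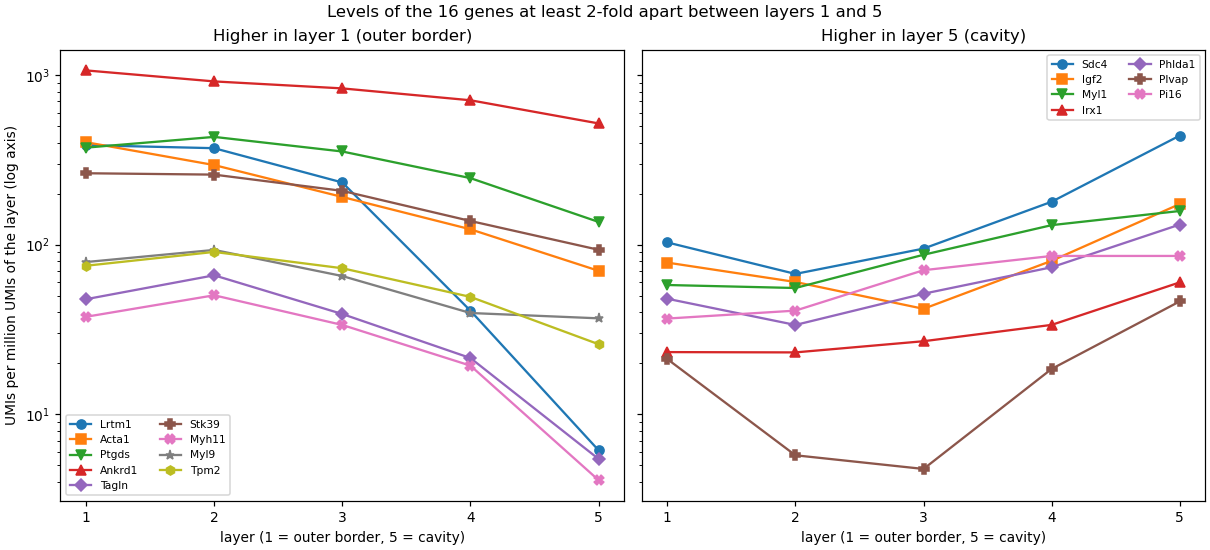
Level of the 16 genes at least 2-fold apart between layers 1 and 5, in CPM of the layer on a log axis, from the outer border (layer 1) to the cavity (layer 5). The 9 genes on the left are lower in layer 5 than in layer 1, most of all Lrtm1, with 6.13 against 386. Some of them, such as Ptgds, Tagln and Myh11, are higher in layer 2 than in layer 1. The 7 on the right are highest in or next to layer 5, where Sdc4 reaches 440.

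The wall patterning list named transcription factors and channels with known gradients, and 6 of its 10 members were ranked. Irx1, an Iroquois factor, was the 1 member among the 50 and rose inward from 23.3 to 59.9 CPM. Outside the 50, Irx2 rose inward from 10.4 to 39.5 CPM and Irx5 from 7.45 to 27.2, while Kcnd2, which carries a fast potassium current, fell inward from 25.9 to 10.2. These 4 genes were at least 2-fold apart between layers 1 and 5. The other 2 ranked members were not: Tbx20 fell from 168 to 134 CPM and Hand2 from 170 to 127. Irx2 and Irx5 had 222 and 211 UMIs over the section and Kcnd2 had 281, so their intervals were wide (outer over inner 0.168 to 0.409, 0.159 to 0.462 and 1.46 to 4.73).

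The left border departed from the outer pattern for some genes. In the left sector of layer 1, 48 spots at rows 28 to 44 and columns 28 to 37, Lrtm1 was 31.9 CPM (18.6 to 51.1), below each of the other 7 sectors, where it ranged from 86.1 to 652. Sdc4 was 269 CPM there (226 to 316), above the 26.9 to 159 of the other sectors, and Phlda1 was 105 CPM against 14.4 to 63.8. Nppa was 763 CPM there and 587 in the lower left sector, against 5.39 to 239 in the other 6. The lower left sector was intermediate, with 86.1 CPM of Lrtm1 and 159 of Sdc4. Not all genes of the wall followed. Of the 9 genes at least 2-fold higher in layer 1, Lrtm1 and Stk39 were lower in the left sector than in each of the other 7, and 7 were within their range, among them Ptgds (381 CPM, against a median of 362), Ankrd1 (930) and Acta1 (274). Of the 7 genes higher in layer 5, Sdc4, Phlda1, Igf2 and Irx1 were above each of the other sectors, and Myl1 (75.1, range 34.1 to 112), Pi16 (31.9, range 15.2 to 52.7) and Plvap (47.0, highest elsewhere 47.3) were not. Spots of the left sector were not shallow, with a median of 11083 UMIs.

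Smooth muscle genes lay in patches within the wall. Acta2, Tagln, Myh11, Myl9 and Tpm2, which encode smooth muscle actin, transgelin, smooth muscle myosin heavy chain, a myosin light chain and β-tropomyosin, correlated with each other at 0.314 to 0.587. The 63 spots richest in the group, 5% of all spots, held 28.8% of its UMIs, and 27 of them lay in layer 2, 16 in layer 1, 14 in layer 3, 6 in layer 4 and none in layer 5. Tagln had a UMI in 22.2% of spots, and its 63 richest spots held 56.5% of its 607 UMIs. Tagln was 72.1 CPM in the upper right quadrant, 51.2 in the upper left, 29.7 in the lower left and 15.0 in the lower right. It was 66.0 CPM in layer 2 and 5.45 in layer 5, and Myh11 was 50.3 and 4.09. These were the 2 genes of the 50 that were 2-fold lower at the edge, with ratios of 0.468 (0.335 to 0.638) and 0.461 (0.316 to 0.654). Acta2 had a broader layout, with a UMI in 86.1% of spots, and differed little between the outermost and innermost layers, at 251 and 230 CPM. Of the smooth muscle list, 7 of 10 members were ranked and 3 of these were among the 50. Pericyte markers, of which 6 were ranked, had none among the 50. In the 63 spots richest in the group, the remaining 7 smooth muscle markers summed to 1.31-fold more than elsewhere (1.20 to 1.43). That sum was mostly Smtn, which had 5143 UMIs spread over 1210 spots, whereas Cnn1, Lmod1 and Actg2 had 45, 63 and 17. Pericyte markers were 1.11-fold higher in the same 63 spots (1.03 to 1.19) and elastic and adventitial markers 2.34-fold (2.17 to 2.52).

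Natriuretic peptide expression overlapped those patches. Nppa, atrial natriuretic peptide, which ventricular muscle can also make, ranked just after Acta1 with a Moran's I of 0.433, and its 63 richest spots held 50.2% of its 3935 UMIs. Its highest spot, with 162 UMIs at row 20 and column 78, was also the highest spot of Tagln, with 22. Nppa was 1549 CPM in the 63 spots richest in the smooth muscle group and 204 CPM elsewhere, 7.61-fold (7.10 to 8.15). This was the largest ratio among the 45 other genes of the 50. In those spots 7 of the 45 were at least 2-fold higher, against 1.09% of all ranked genes, and besides Nppa these were Myh7 (3.03-fold), Igf2 (2.499), Mgp (2.33), Ankrd1 (2.21), Acta1 (2.11) and Pi16 (2.04). The spots were chosen on the smooth muscle genes alone. With the ratio taken in layers 2 to 4 alone it was 6.97, and with the richest 10% of spots it was 4.96. Of the 63 richest spots of Nppa and of Tagln, 21 were shared, 33.3% of each.

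Nppa did not follow the smooth muscle patches everywhere. It was also high at the cavity, with 349 CPM in layer 5 against 246 in layer 1, and at the left border. Its correlation was 0.341 with Ankrd1 and 0.334 with Myh7, the slow myosin heavy chain that the adult mouse ventricle makes little of. Nppa was in turn the gene most like Myh7, which had 46.8% of its 483 UMIs in its own 63 richest spots. Myh7 was 59.9 CPM in layer 5 and 32.2 in layer 1, and its highest spot, at row 52 and column 70 with 19 UMIs, lay below the cavity. Nppa was the only 1 of 5 ranked atrial markers among the 50, and Myl7, Sln and Bmp10 stayed at 125, 16 and 9 UMIs in the whole section. The UMIs of Myl7 lay in only 29 spots, and the 158 UMIs of Myl4, another atrial marker, in 80. The 11 atrial markers other than Nppa summed to 1.63-fold more in the 63 spots richest in Nppa and Myh7 than elsewhere (1.45 to 1.83). Over the section, the UMIs of these 11 were mostly of Kcnj5, Kcnj3 and Tbx5, spread over 772, 714 and 558 spots. Whether some spots were atrial-like was not tested. In the 63 spots richest in Nppa and Myh7, 11 of the 48 other genes were at least 2-fold higher, against 0.54% of all ranked genes, led by Tagln (5.58-fold, 4.58 to 6.77) and Myh11 (4.24-fold, 3.32 to 5.35).

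**Figure D3:**
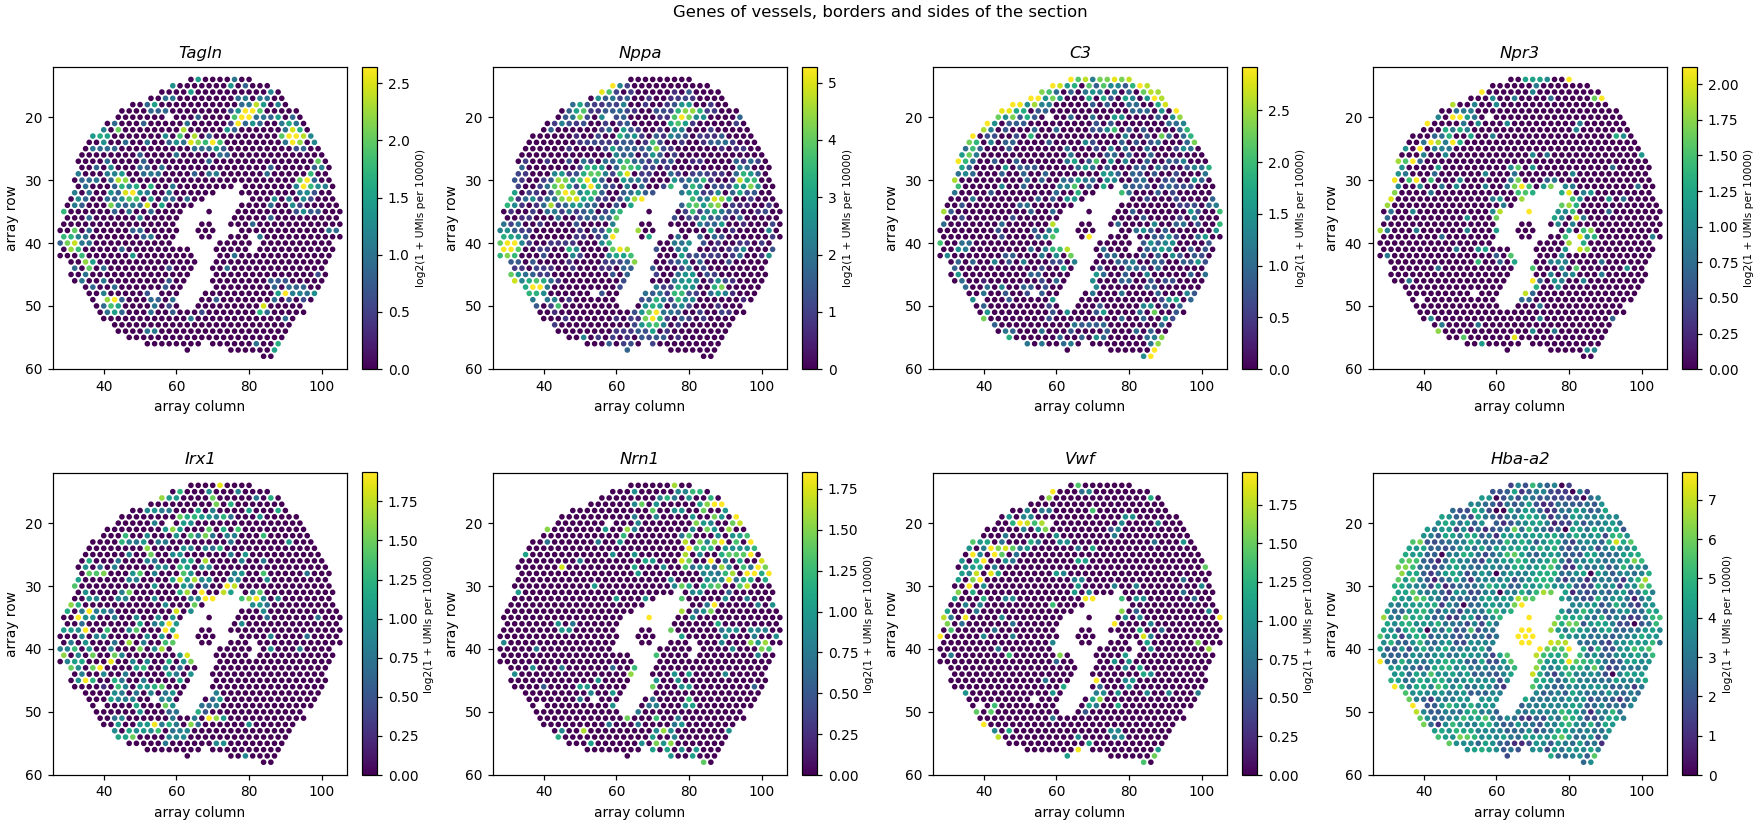
Maps of 8 genes over the control section, by array column and array row, with color for log2(1 + UMIs per 10000 UMIs of the spot). The 3 detached outer spots are not drawn. Tagln and Nppa show patches in the wall, and C3 follows the upper outer border. Npr3 and Vwf follow the upper left border and the cavity, Irx1 the left side and Nrn1 the upper right. Hba-a2 is high in the 8 spots in the cavity but not confined to them, with a UMI in 1238 spots of the section.

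Actins and smooth muscle genes are known targets of serum response factor, which binds the CArG box, CC followed by 6 bases that are A or T and then GG. RefSeq promoter windows (GRCm38.p6, 250 bases before to 50 after the start) were at hand for 35 of the 50 genes, and 4 of these genes had a CArG box in at least 1 window, Acta1, Fhl2, Igf2 and Myl9, as did 1.81% of all 27025 genes. By windows, 5 of the 45 windows of these genes held it, against 1.63% of all 32851. Acta2, a smooth muscle actin, was among the 35 genes and had no exact match to this pattern. Boxes with a G or C among the 6 middle bases were not searched for, so a variant box may be present. The sequences around the box are shown for Acta1, of the outer wall, and Myl9, of the smooth muscle patches. These sequences are 5′ to 3′ on the strand of the gene, with the box in capitals. They lie upstream of the start, at chr8:123894829-123894858 on the minus strand and chr2:156775293-156775322 on the plus strand.
Acta1: tgcccgacacCCAAATATGGcttgggaagg
Myl9: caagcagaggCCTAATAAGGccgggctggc
The genes shared this motif, and their layouts differed, with a ratio of layer 1 over layer 5 of 5.73 for Acta1 and 2.15 for Myl9. A match of letters is not a binding site. Windows of the 50 held no MEF2 site (CTA, 4 bases that are A or T, TAG), which 0.557% of all windows held. Also searched were CATTCC, in 13 of the 35 genes (16.6% of all genes), and AGGTGT, in 7 (15.7%).

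Genes of the borders of the ring included C3, complement component 3, and Igfbp5, a binding protein of insulin-like growth factors. C3 was 123 CPM in layer 1 and 26.9 to 62.0 in the other layers, and 3.50-fold higher in edge than in interior spots (3.01 to 4.05). Igfbp5 was 251 CPM at the edge and 105 in the interior, 2.39-fold (2.15 to 2.65), and it was about as high at the cavity, at 173 CPM in layer 5, as at the outer border, at 192 in layer 1 (ratio 1.11, 0.958 to 1.29). Of the 63 spots richest in the pair, 53 were edge spots and 51 lay in layer 1. Epicardial mesothelium markers, none of which reached 200 UMIs alone, summed to 432 UMIs and were 11.5-fold higher in those 63 spots than elsewhere (9.30 to 14.2). Of the 48 other genes, 8 were at least 2-fold higher there, against 0.845% of all ranked genes, led by Npr3 (4.81-fold), Plvap (3.59-fold) and Vwf (3.54-fold). By direction, C3 was 200 to 236 CPM in the upper left, upper and upper right sectors of layer 1 and 20.3 to 88.0 in the other 5. The epicardial markers followed the same sectors, with 138 to 175 CPM in those 3 and 10.1 to 37.7 in the other 5. So C3 and the epicardial markers were high together on the upper border and low on the left, right and lower borders.

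Endocardial genes lined the cavity and part of the outside. Of the 4 ranked endocardium markers 3 were among the 50: Npr3, the clearance receptor for natriuretic peptides, Vwf, von Willebrand factor, and Plvap, a protein of endothelial diaphragms. They were scarce, with 305, 268 and 222 UMIs, and had a UMI in 16.2%, 14.9% and 11.9% of spots. All were higher at the edge, by 2.90-fold (2.26 to 3.71), 2.38-fold (1.80 to 3.13) and 3.26-fold (2.44 to 4.32). Npr3 was 31.3 CPM in layer 1, 12.95 in layer 2, 4.76 in layer 3, 21.9 in layer 4 and 54.5 in layer 5, so that both faces of the wall exceeded its middle. Plvap had the same profile, with 21.2, 5.73, 4.76, 18.5 and 46.3 CPM, while Vwf was highest in layer 1, at 33.4 CPM. On the outer face Npr3 and Vwf were highest at the upper left: in that sector of layer 1 Npr3 was 92.8 CPM and Vwf 83.7, and in the right sector 2.44 and 19.5. The general endothelial markers, 8 of which were ranked, had none among the 50, and their sum was 1034 CPM in layer 1 and 994 in layer 5.

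Igf2, insulin-like growth factor 2, and Npr3 were each the gene most like the other among the 50, with a correlation of 0.380. Igf2 was 174 CPM in layer 5, 41.9 in layer 3 and 78.4 in layer 1, so that it too was lowest in the middle of the wall. It was 1.92-fold higher in edge than in interior spots (1.66 to 2.21), and 28 of its 63 richest spots lay in layer 5.

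Connective tissue genes were spread over both faces. Mgp, which inhibits calcification, Gsn, the actin-severing gelsolin, and Col3a1, a fibrillar collagen, correlated at 0.331 to 0.402, and the 63 spots richest in them held 11.4% of their UMIs. They were 1.52-fold to 1.69-fold higher at the edge. Mgp was 607 CPM in layer 1, 312 in layer 3 and 541 in layer 5, and Gsn rose from 457 CPM in layer 2 to 874 in layer 5. Apoe, apolipoprotein E, had the same shape, with 494 CPM in layer 1, 296 in layer 3 and 476 in layer 5, and was 1.71-fold higher at the edge. In the richest spots of Mgp, Gsn and Col3a1, the remaining 8 fibroblast markers summed to 2.36-fold more than elsewhere (2.24 to 2.498). Other lists were higher in the same spots, the epicardial markers 5.13-fold (3.95 to 6.58) and the endocardium markers 4.13-fold (3.53 to 4.80). The endocardium sum kept Npr3, Plvap and Vwf, which are of the 50 (6.15-fold, 5.52-fold and 4.15-fold). They held 63, 42 and 40 of its 197 UMIs there, and the sum without them was not computed. Of the 63 spots, 39 were edge spots. Macrophage markers, 6 of which were ranked, had none among the 50.

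**Figure D4:**
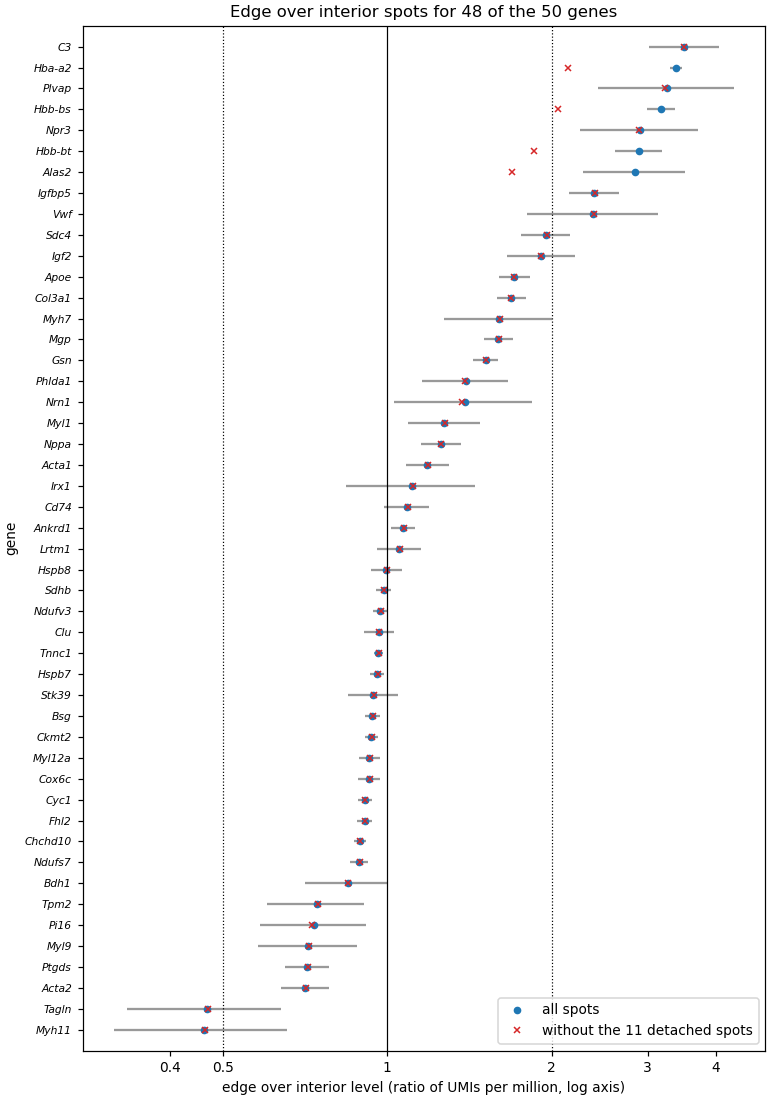
Ratio of the level in the 230 edge spots to that in the 1026 interior spots for 48 of the 50 genes, on a log axis, as dots with 95% counting intervals as lines and dotted lines at 0.5 and 2. Crosses leave out the 11 detached spots, which lowers the ratio of Hba-a2 from 3.38 to 2.15 and leaves that of C3 at 3.50.

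Some genes kept to a side. Nrn1, neuritin, a membrane-anchored protein known from neurons, was 53.8 CPM in the upper right quadrant, 18.05 in the lower right, 8.89 in the lower left and 7.61 in the upper left, 7.06-fold from highest to lowest. It had 325 UMIs, 47 of its 63 richest spots lay in the upper right quadrant, and it changed little with depth in the wall, from 24.7 CPM in layer 1 to 18.4 in layer 5. Its highest correlation with another gene of the 50 was 0.118, with Lrtm1. Irx1 showed the opposite side, with 49.2 CPM in the lower left, 39.8 in the upper left, 23.7 in the upper right and 6.11 in the lower right, 8.05-fold from highest to lowest. Irx2 had the same order of quadrants, with 25.5, 19.6, 10.9 and 6.11 CPM, whereas Irx5 was 13.3 to 17.2 CPM in all 4. Vwf, at 38.4 CPM, and Plvap, at 27.5 CPM, were highest in the upper left, and Npr3 there was 42.5 CPM against 9.16 to 18.6 in the others. Clu, clusterin, a secreted chaperone, was 663 CPM in the upper left and 494 in the lower right, and 29 of its 63 richest spots lay in the upper left.

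Blood accounted for 5 of the 50. Hba-a2, Hbb-bs and Hbb-bt encode globin chains, and Alas2 the first enzyme of heme synthesis in red cells. All 5 ranked members of the erythroid list were among the 50. Hbb-bs and Hbb-bt are near-identical copies, so counts may be split between them. The 8 cavity spots held 3604 of the 23809 UMIs of Hba-a2 and were among the 63 richest spots of each of these 4 genes. Without the 11 detached spots, Moran's I fell from 0.319 to 0.271 for Hba-a2, from 0.282 to 0.230 for Hbb-bs, from 0.229 to 0.144 for Hbb-bt and from 0.201 to 0.0313 for Alas2. The globin genes stayed in the 50, while Alas2 went to rank 301. Within the ring, Hba-a2 was 2489 CPM in layer 5 and 1145 to 1585 in the others. Of the 35 genes with a promoter window, 6 held GATAAG on either strand in at least 1 window. This is a motif of GATA factors, and 8.58% of all genes held it. The 6 were the 3 globin genes and also Bdh1, Fhl2 and Lrtm1, which are not of the erythroid list. The motif is in capitals in the globin windows below, 5′ to 3′ on the strand of the gene, at chr11:32296297-32296322 (plus), chr7:103828122-103828147 (minus) and chr7:103814112-103814137 (minus).
Hba-a2: ccgggcaactGATAAGgattccctgc
Hbb-bs: tctctgcacaGATAAGgacaaacatt
Hbb-bt: tagctgcaagGATAAGaacagacact

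The largest group, of 12 abundant genes, had the weakest positions. Tnnc1 and Fhl2 (a troponin and a LIM protein of muscle), Myl12a, Bsg, Hspb7 and Ckmt2 (a myosin light chain, a chaperone of lactate transporters, a small heat shock protein and the mitochondrial creatine kinase), Sdhb, Cyc1, Cox6c, Ndufs7 and Ndufv3 (subunits of the respiratory chain) and Chchd10 of mitochondria formed a group with a median correlation of 0.444. Each had a UMI in at least 99.2% of spots. None was 2-fold apart by edge, quadrant or layer, and the steepest, Myl12a, went from 1307 CPM in layer 1 to 897 in layer 5, a ratio of 1.46 (1.37 to 1.55). Without the 11 detached spots their median correlation was 0.0769, and Moran's I fell from 0.172 to 0.104 for Tnnc1, from 0.163 to 0.0477 for Sdhb and from 0.134 to 0.0365 for Ndufv3. Of the group, 7 left the 50 then (Tnnc1, Sdhb, Ndufs7, Ckmt2, Cox6c, Cyc1 and Ndufv3), while Myl12a, at 0.223, Bsg, Hspb7, Fhl2 and Chchd10 stayed. Over all spots the correlation of their normalized level with the log UMIs of the spot ran from 0.414 for Myl12a to 0.653 for Tnnc1. Those spots included the 11 detached ones, of 1 to 1681 UMIs each, so these values do not describe depth within the ring alone. With spots thinned to 7908 UMIs, Moran's I was 0.0449 for Sdhb, 0.0362 for Cyc1 and 0.0131 for Ndufv3. Sdhb, Chchd10, Ndufs7, Ckmt2, Cox6c, Cyc1 and Ndufv3 then left the 50, and none of the 12 grouped with another of them. Thinning also left out 126 shallower spots, so the part of depth alone was not tested. Each of the 12 had its highest count in the same spot, at row 46 and column 40, which held 47367 UMIs, the most of the section.

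**Figure D5:**
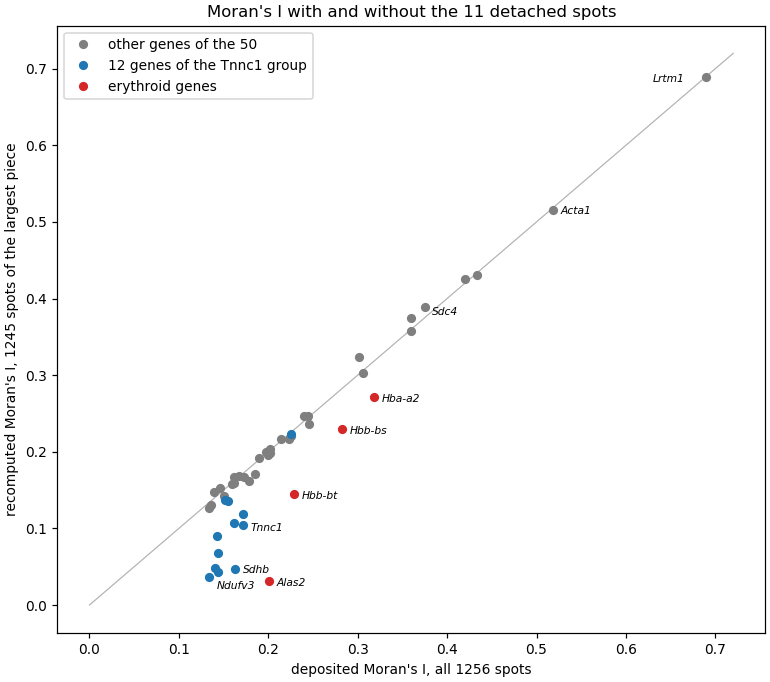
Moran's I of 48 of the 50 genes as deposited over all 1256 spots, against Moran's I recomputed over the 1245 spots of the largest piece, with a line where they are equal. Most other genes lie near the line, while the erythroid genes (red) and most of the 12 genes grouped with Tnnc1 (blue) lie below it.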

How the data were processed

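Visium CytAssist probe libraries of 1 control section were analysed, and the transgenic section was not used beyond counting its spots. The authors deposited whole-number UMI counts per gene and spot and, as scores, Moran's I per gene, both from Space Ranger (2.0.0 per the file headers; genome builds GRCm39 and mm39 in the submitters' processing notes). Recomputed on log1p of UMIs per 10000 with the neighbors in 2 rings (18 spots), Moran's I differed from the deposited one by at most 0.0216, and 48 of the 50 genes were shared. Only spots flagged as over tissue were used, and 7221 genes with at least 200 UMIs were ranked. Levels are summed UMIs per 1000000 (CPM). Intervals are exact 95% ones (Poisson, or binomial for ratios) and cover counting error only; 14 of the 50 genes had under 1000 UMIs, and depth was 7908.5 to 15261.5 UMIs from the 10th to the 90th percentile of spots. Genes were grouped by correlation over spots (average linkage, distance 0.7). By a fixed rule the 50 genes (2 of them counted but not reported here), the 3 below them and the leading members of the marker lists are named; other list members named here (Irx2, Irx5, Tbx20, Hand2, Kcnd2 and the atrial and ventricular markers) were chosen after their values were seen. The 50 genes and the lists were chosen with earlier results of these data known, and layers, sectors, the largest piece and their alternatives after seeing the layout. Calculations ran in Python (3.11.15) with pandas (2.3.3), scipy (1.17.1), numpy (2.4.6) and matplotlib (3.10.9), and were tested on simulated data.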

Additional observations from a re-analysis of the deposited data

How the results depend on the processing

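The spatial ranking kept 35 to 48 of the 50 genes when it was made in other ways: 47 with a minimum of 100 UMIs, 41 with 500, 45 with 6 neighbors, 35 on raw UMIs, 41 with spots thinned to 7908 UMIs (126 shallower spots left out), 41 with spots of at least 1000 UMIs, 39 over interior spots and 41 over the largest piece; 28 genes were kept under all 7 recomputed settings. With the edge taken as spots bordering only the outside, 5 instead of 12 genes were 2-fold apart. Groups of at least 3 genes numbered 6, and 3 both with a cut at 0.6 and on thinned counts. Lrtm1 joined the Acta1 group on the largest piece, with Spearman correlation and with a cut at 0.8. It stayed apart on thinned counts, with complete linkage and with a cut at 0.6, where Ankrd1 left the group. The share of a group's UMIs in its richest spots moved with the number of spots by construction: with 2.5% and 10% of spots it was 7.45% and 23.0% for the Acta1 group (13.5% with 5%), 20.9% and 39.1% for Acta2 (28.8%), 24.0% and 41.3% for Hba-a2 (31.4%), 6.04% and 20.7% for Mgp (11.4%), 15.9% and 41.2% for Igf2 (25.9%) and 3.09% and 12.7% for Myl12a (6.27%). On the largest piece the Hba-a2 group's share was 20.9%. Among values of single genes under one alternative each, 72 moved (a rank below 50, or a ratio outside the counting interval) and 303 did not. No ratio among them changed direction. Among the headline results, tallied apart, 16 moved and 30 did not. Layers, sectors and the largest piece, with their alternatives, were chosen after seeing the data. No paired analysis was possible because there is 1 control section and no comparison between groups.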

Other observations

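The ranking by Moran's I passed over 34 genes that were at least 2-fold apart between layers 1 and 5, most of them scarce. A few of them, chosen after their values were seen, are given here. Kcne1, a subunit of the slow potassium channel, had 280 UMIs, ranked 99 and was higher in layer 5 (45.6 CPM) than in layer 1 (8.94), with an outer over inner ratio of 0.196 (0.123 to 0.306), an interval that holds the ratio of Sdc4 (0.234). Etv5, a transcription factor of growth factor signaling, rose from 28.3 to 64.0 CPM, and Cenpf, a centromere protein, from 17.6 to 38.1. Cenpf alone held 354 of the 627 UMIs of the cell cycle list, in which Mki67 had 74 and Top2a 26. Cell division was not tested. Mfap4, of elastic fibers, was 25.3 CPM in layer 1 and 7.49 in layer 5, and Mylk, the smooth muscle myosin light chain kinase, 19.4 and 8.17. Mfap4 did not stand for its list, since the elastic and adventitial markers summed to 488 CPM in layer 1 and 543 in layer 5. All were read from 1 section without replicates.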
